A study of Mus musculus with 10 samples.

Results

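The postsynaptic density scaffolds and CaMKII were examined as a set of 40 genes, chosen by name from its scaffold families and partners, out of 54838 gene identifiers in the files. All 40 were among the 16806 genes with enough reads to test. The libraries were translating ribosome affinity purification (TRAP) precipitates, in which RNA bound to an EGFP-tagged ribosomal protein, L10a, is pulled down with its ribosomes. The tagged protein was expressed in MC-TRAP mice, genotype Drd2-Cre;Eef1a1LSL.eGFPL10a/+ on the C57BL/6 strain, male and about 10 weeks old, and all 10 libraries shared this genotype. The groups differed in the tissue taken, the dorsal or the ventral hippocampus with the ventral subiculum removed. Each of the 5 Dorsal and 5 Ventral libraries came from a pool of 5 mice. Hippocampi were divided into both parts, so the groups may share mice. Drd2-Cre is active in hilar mossy cells (MCs) and also in hippocampal interneurons and in neurons of the ventral subiculum. The paper describes these interneurons as sparse, but its limitations allow that a substantial subset may be captured, with some subicular tissue. The precipitate is therefore a Drd2-expressing, MC-enriched population rather than pure MCs.

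The postsynaptic density is the protein sheet under the membrane of an excitatory synapse. Its scaffolds form layers: DLG proteins bind glutamate receptors and adhesion molecules near the membrane, DLGAP proteins link them to SHANK proteins below, and Homer proteins tie SHANK to metabotropic glutamate receptors and to calcium stores. CaMKII is the calcium and calmodulin dependent kinase that is packed into this sheet and whose activation starts many forms of synaptic strengthening. MCs receive very large mossy fiber synapses from granule cells on their proximal dendrites, onto spine clusters called thorny excrescences.

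All 3 SHANK genes and 2 of the 3 Homer genes were higher in dorsal than in ventral libraries, by 1.41-fold to 1.93-fold. However, Homer1 turned with offsets for GC content and length. Shank1 and Shank3 kept their sign but lost their calls with the share of reads outside genes as a covariate, whose values do not overlap between the groups. None of the 4 DLG, 4 DLGAP or 3 MAGI genes passed edgeR's test, and at an unadjusted p below 0.05 the count was 1, Dlg4, which DESeq2 also passed at an adjusted p below 0.05. Of the CaMKII isoforms, Camk2a was higher dorsally and Camk2g higher ventrally, both under the fold threshold, and Camk2g did not pass with either of those corrections. A gene was called dorsal-enriched or ventral-enriched when edgeR's quasi-likelihood test gave a Benjamini-Hochberg adjusted p below 0.05 over all tested genes and the log2 ratio of mean CPM plus 1 (CPM, reads relative to library size after TMM scaling) passed 0.58 in size. By this rule 5 of the 40 members were dorsal-enriched (12.5%, against 15.7% of all tested genes): Shank1, Shank3, Homer1, Homer2 and Ppp1r9b. Only 2 were ventral-enriched (5.0%, against 9.85%): Grip1 and Lin7b. At an adjusted p below 0.05 with no fold threshold, 15 members passed (37.5%, against 33.6%), 11 of them higher dorsally (27.5%, against 19.0%) and 4 higher ventrally (10%, against 14.6%). Over the protein-coding genes alone the background was 11.4% dorsal-enriched, 10.3% ventral-enriched and 31.5% at an adjusted p below 0.05 (15.4% higher dorsally and 16.1% higher ventrally). The shares called were below those of all tested genes in both directions. Against protein-coding genes the dorsal-enriched share was slightly above and the ventral-enriched share below. With no fold threshold, the share higher dorsally was above both backgrounds and that higher ventrally below both. No test of the set was made. In these bulk precipitates, fewer cells of a type and less RNA per cell cannot be told apart.

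Facts of the libraries bear on every value. Counts on genes ran from 11138676 to 16779821 in dorsal and from 11618625 to 20594364 in ventral libraries, and 3 counts, the smallest level taken as detectable, equalled 0.141 to 0.282 CPM. The share of read pairs counted outside genes was 21.8% to 33.9% in dorsal and 11.6% to 19.3% in ventral libraries, and mitochondrially encoded mRNAs summed to 2768 to 3517 CPM against 446 to 1254 CPM, both without overlap. Of 6 oligodendrocyte markers, 4 were dorsal-enriched (summed 2342 to 2813 CPM dorsally, 840 to 1652 CPM ventrally), as were 4 of 6 astrocyte markers, with 1 ventral-enriched (140 to 191 against 81.5 to 130 CPM). Of 9 interneuron markers, 3 were ventral-enriched (3408 to 4586 against 4079 to 5331 CPM, most of it Gad2, which makes GABA). The part of glia, interneurons and mitochondrial RNA in the members' differences was not tested, and the share of reads outside genes was entered as a covariate in an alternative fit. Of the 7 calls in members, that fit kept Homer1 and Homer2. Over all 16806 tested genes it called 834 dorsal-enriched and 339 ventral-enriched, against 2636 and 1655 in the main fit. The loss of calls was thus not particular to the members. Marker lists for granule, CA3, CA1 and ventral subicular cells, microglia and endothelium had at most 1 called gene in each direction. Among 6 mossy cell markers, 2 were dorsal-enriched (Gria3 and Cyp26b1) and 2 ventral-enriched (Satb1 and Calb2), and the summed level was 640.2 to 799 CPM dorsally and 1180 to 1444 CPM ventrally. Calb2 (calretinin), which marks ventral MCs, was at a mean of 65.0 CPM dorsally and 615 CPM ventrally, Drd2 at 28.1 and 20.7 CPM, and Calcrl at 7.50 and 8.23 CPM. Satb1 was at 270 and 449 CPM, Gria3 at 270 and 166 CPM and Cyp26b1 at 60.4 and 28.8 CPM. The gap between the sums was thus mostly Calb2, and the sums do not measure MC content. Dorsal replicate 1 stood apart from the other dorsal libraries over these members, as described after the families, and each call that rests on it is given with and without it.

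The 3 sequences that follow are promoters of dorsal-enriched scaffold genes, shown because the SHANK and Homer families held 4 of the 5 dorsal-enriched members. Each is the 250 bases before a RefSeq transcription start on GRCm38.p6, in the direction of the gene. Capitals mark matches, on either strand, to the GC box GGGCGG, the EGR1 motif GCGGGGGCG, which can overlap it, or the letters TGACG, one part of the cAMP response element TGACGTCA. The TATA box TATAAA and the whole TGACGTCA were also searched, and the short TGACG was added after the Homer1 window had been read.
Shank3, chr15:89499358-89499607, plus strand: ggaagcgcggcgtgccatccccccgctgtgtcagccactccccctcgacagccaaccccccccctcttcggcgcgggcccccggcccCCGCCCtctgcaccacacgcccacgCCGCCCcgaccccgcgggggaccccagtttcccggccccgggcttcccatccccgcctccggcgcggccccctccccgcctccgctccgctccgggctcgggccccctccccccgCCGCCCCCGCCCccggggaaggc
Homer1, chr13:93303507-93303756, plus strand: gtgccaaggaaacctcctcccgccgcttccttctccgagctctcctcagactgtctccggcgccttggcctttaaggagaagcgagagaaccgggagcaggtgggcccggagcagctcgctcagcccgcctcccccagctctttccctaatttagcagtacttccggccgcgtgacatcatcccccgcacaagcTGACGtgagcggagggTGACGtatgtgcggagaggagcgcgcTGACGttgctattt
Homer2, chr7:81706926-81707175, minus strand: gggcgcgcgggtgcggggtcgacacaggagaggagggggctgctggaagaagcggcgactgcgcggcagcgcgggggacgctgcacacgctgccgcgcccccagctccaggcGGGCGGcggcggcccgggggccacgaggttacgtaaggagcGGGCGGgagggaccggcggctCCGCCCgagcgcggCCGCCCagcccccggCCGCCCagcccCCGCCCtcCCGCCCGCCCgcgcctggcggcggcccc
The Shank3 and Homer2 windows were 82.4% and 83.2% G and C, against a median of 52.4% over 32851 RefSeq windows of the same length. Homer2 held 8 GC boxes and Shank3 held 4, together with 1 EGR1 motif, while 32.7% of all windows held a GC box and 2.57% the EGR1 motif. The Homer1 window was 62.4% G and C and held 3 matches to TGACG, which 17.8% of all windows contain at least once, and no GC box. None of the 3 held TATAAA (12.4% of all windows) or TGACGTCA (1.55%). For Homer1 and Homer2, which have 2 windows each, the one nearest the GENCODE start of the gene was taken. The Homer1 start lies 4122 bases and the Homer2 start 602 bases inside the gene as GENCODE draws it, so both windows are within the annotated gene. A match is a description of the letters and not evidence of binding. A window was found for 34 of the 40 members. Shank1 had none, and the Ppp1r9b window, which lies partly inside an annotated transcript, is not printed.

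Levels of different genes can be set side by side only per length, so mean CPM was divided by the exonic length in kilobases (kb). On this scale Camk2a led the members with 271 CPM per kb over all 10 libraries, followed by Nrgn at 238, Lin7c at 107, Shank1 at 86.9 and Dlgap1 at 74.0. Neurogranin (Nrgn) is the small protein that holds calmodulin at rest. The dorsal spread of Nrgn was wide, with a coefficient of variation of 37.0% against 5.0% for Camk2a, and its place next to Camk2a is correspondingly loose. At the low end stood Sipa1l2 at 2.62, Homer3 at 1.45, Pick1 at 0.992 and Grip2 at 0.552 CPM per kb. The interneuron marker Gad2, which is not a member, was at 512 CPM per kb. The part of each cell type in the members' levels was not tested. The 40 members were long, with a median exonic length of 9228 bases against 4032 over all tested genes, and a median transcript GC of 52.1% against 48.5%. Across the 40 genes, which are not independent of one another, the log2 fold change tracked log2 mean CPM (Pearson r 0.522, Spearman 0.537), so the abundant members tended to be the dorsal-higher ones. It had no such relation to transcript GC (Pearson r -0.0317, Spearman -0.0578). The summed CPM of the members was 11448 to 12124 in dorsal and 9068 to 10364 in ventral libraries, without overlap. This sum is not scaled to length and is weighted to abundant genes. Its largest differences of means were those of Camk2a (2311 against 1737 CPM) and Shank1 (1203 against 624 CPM). It does not show a rise across the whole set.

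**Figure D1:**
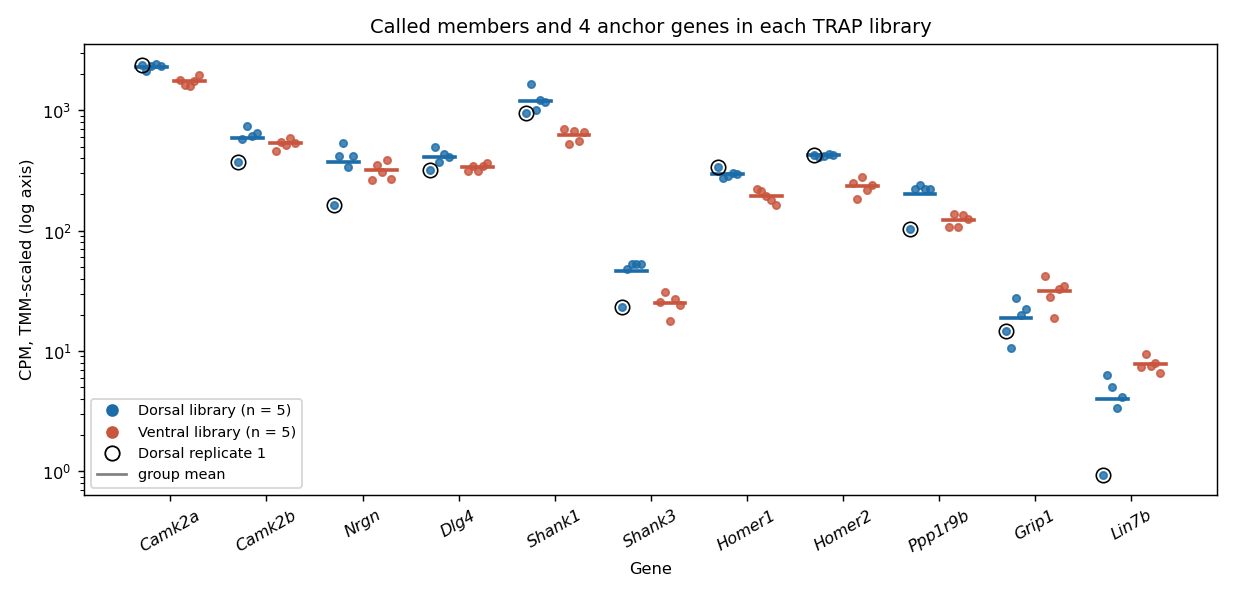
TMM-scaled CPM on a log axis in each of the 5 Dorsal (blue) and 5 Ventral (red) libraries, for the 7 called members and for Camk2a, Camk2b, Nrgn and Dlg4; bars are group means and rings mark Dorsal replicate 1. Shank1, Homer1, Homer2 and Camk2a were higher in every dorsal library than in any ventral one. Dorsal replicate 1 lay within the ventral range for Shank3 and Dlg4 and below it for Ppp1r9b, Nrgn and Camk2b. It also lay below that range for the ventral-enriched Grip1 and Lin7b.

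SHANK proteins are the large scaffolds of the deep layer that join DLGAP, Homer and the actin skeleton. Shank1 (chr7:44310253-44360572, GRCm38) was at 954, 1643, 1011, 1223 and 1181 CPM in Dorsal replicates 1 to 5 and at 702, 524, 679, 555 and 659 CPM in Ventral replicates 1 to 5. Every dorsal library was above every ventral one, with Dorsal replicate 2 the highest. The dorsal mean was 1203 ± 271 CPM and the ventral mean 624 ± 79.3 (SD, n = 5 each), a 1.93-fold difference (log2 fold change 0.95 ± 0.14 SE, edgeR adjusted p = 0.000349). Shank1 made up most of the family per kb, at 80.3% ± 2.97 of SHANK dorsally and 76.2% ± 1.82 ventrally, ranges that met at 78.2%.

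Shank3, the member whose loss is tied to Phelan-McDermid syndrome and autism, was the least abundant SHANK. Shank3 (chr15:89499623-89560261) was at 23.4, 48.2, 53.3, 52.5 and 52.5 CPM in the dorsal and 25.4, 30.8, 17.8, 26.9 and 24.3 CPM in the ventral libraries. Dorsal replicate 1 lay among the ventral libraries and the other 4 dorsal libraries above all of them. The means of 46.0 ± 12.8 and 25.0 ± 4.73 CPM differed 1.86-fold (log2 0.89 ± 0.20, edgeR adjusted p = 0.00512), and without Dorsal replicate 1 the log2 fold change was 1.05 (adjusted p = 0.000259). Shank2 was at 226 to 261 CPM dorsally and 125 to 230.2 CPM ventrally, overlapping through Ventral replicate 3. It passed the p threshold (log2 0.50 ± 0.13, edgeR adjusted p = 0.0127) but not the fold threshold, which it did pass without Ventral replicate 3 (0.62). With offsets that take out each library's trend with GC content and length, all 3 SHANK genes were called, at 1.34, 0.79 and 1.27 for Shank1, Shank2 and Shank3. The share of reads outside genes was also entered as a covariate. Its values do not overlap between the groups, and its part cannot be told apart from theirs. With it Shank1 was at 0.84 ± 0.28 SE (edgeR adjusted p = 0.0845), Shank2 at 0.36 (adjusted p = 0.420) and Shank3 at 0.62 ± 0.42 SE (adjusted p = 0.389).

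Homer proteins form the tetramers that cross-link SHANK to metabotropic glutamate receptors. Homer2 (chr7:81600481-81707527), the member with the lowest adjusted p, was at 423, 407, 419, 433 and 429 CPM dorsally and at 249.7, 184, 282, 219 and 237 CPM ventrally. The dorsal libraries lay within a coefficient of variation of 2.40%, all above the highest ventral library. The means of 422 ± 10.1 and 234 ± 36.3 CPM differed 1.80-fold (log2 0.85 ± 0.11, edgeR adjusted p = 0.000117). Homer2 kept its call in each of 25 alternative analyses, including GC and length offsets (0.80) and the share of reads outside genes (0.76, adjusted p = 0.0352).

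Homer1 (chr13:93299635-93405129) was at 339, 274, 282, 299 and 295 CPM dorsally and 223, 215, 193, 179 and 163 CPM ventrally, again without overlap. The means of 298 ± 24.9 and 195 ± 24.8 CPM differed 1.53-fold (log2 0.62 ± 0.11, edgeR adjusted p = 0.000986). Its transcript GC of 36.9% was the lowest of the 40, and with GC and length offsets its log2 fold change became -0.26 (adjusted p = 0.0759), opposite in sign. GC and length were not corrected separately. The call also fell under the fold threshold without Dorsal replicate 1 (0.57) and without Ventral replicate 5 (0.56). Homer1 gives rise to long scaffolding forms and to the short, activity-induced Homer1a, which gene counts do not separate. Homer3 was near 5 CPM in all libraries, at 5.20 ± 0.841 and 4.75 ± 0.884 (log2 0.12 ± 0.24, adjusted p = 0.735), and 25.4% of its exonic bases overlap Ddx49.

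CaMKII is a ring of subunits from 4 genes, of which the alpha and beta forms are the neuronal ones. Camk2a was the most abundant member, at 2372, 2112, 2324, 2405 and 2341 CPM dorsally and 1784, 1622, 1583, 1742 and 1952 CPM ventrally. All dorsal libraries were above all ventral ones. The means of 2311 ± 115 and 1737 ± 146 CPM differed 1.33-fold, which passed the p threshold but not the fold threshold (log2 0.41 ± 0.08, edgeR adjusted p = 0.00189). With GC and length offsets the value was 0.65 and Camk2a was called. Camk2b was at 371, 582, 735, 608 and 650.2 CPM dorsally and 463, 543, 520.0, 588 and 539.7 CPM ventrally. The groups overlapped, with Dorsal replicate 1 the lowest of all 10, and the difference did not pass (log2 0.15 ± 0.14, edgeR adjusted p = 0.439). It did pass the p threshold without Dorsal replicate 1 (0.28, adjusted p = 0.0399) and with GC and length offsets (0.40, adjusted p = 0.0288). With the share of reads outside genes Camk2b was at -0.37 (adjusted p = 0.393).

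The gamma and delta isoforms, which are also expressed outside neurons, lay on the other side. Camk2g was at 90.7 to 117 CPM dorsally and 112 to 171 CPM ventrally, with an overlap of Dorsal replicate 1 and Ventral replicate 3 (log2 -0.41 ± 0.12, edgeR adjusted p = 0.0185; with GC and length offsets, -0.24, adjusted p = 0.124, and with the share of reads outside genes, -0.046, adjusted p = 0.925). Camk2d was at 159 to 305 CPM and 241 to 469 CPM (log2 -0.46 ± 0.19, adjusted p = 0.0709; with the offsets, -0.62, adjusted p = 0.0152, and with the share of reads outside genes, 0.31, adjusted p = 0.570). Within the family, per kb, Camk2a accordingly held 75.1% to 81.4% in dorsal and 70.0% to 73.7% in ventral libraries. Camk2g held 3.77% to 4.67% against 5.80% to 7.90%, and Camk2d 1.70% to 3.472% against 3.477% to 6.18%. The shares of Camk2a and Camk2g did not overlap between the groups, also with the longest transcript as the length. Those of Camk2d all but met, and overlapped with the longest transcript (4.09% to 8.44% against 8.12% to 14.1%), while Camk2b overlapped at 10.4% to 19.4% against 15.1% to 19.3%. The difference between the isoforms' fold changes was not tested.

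**Figure D2:**
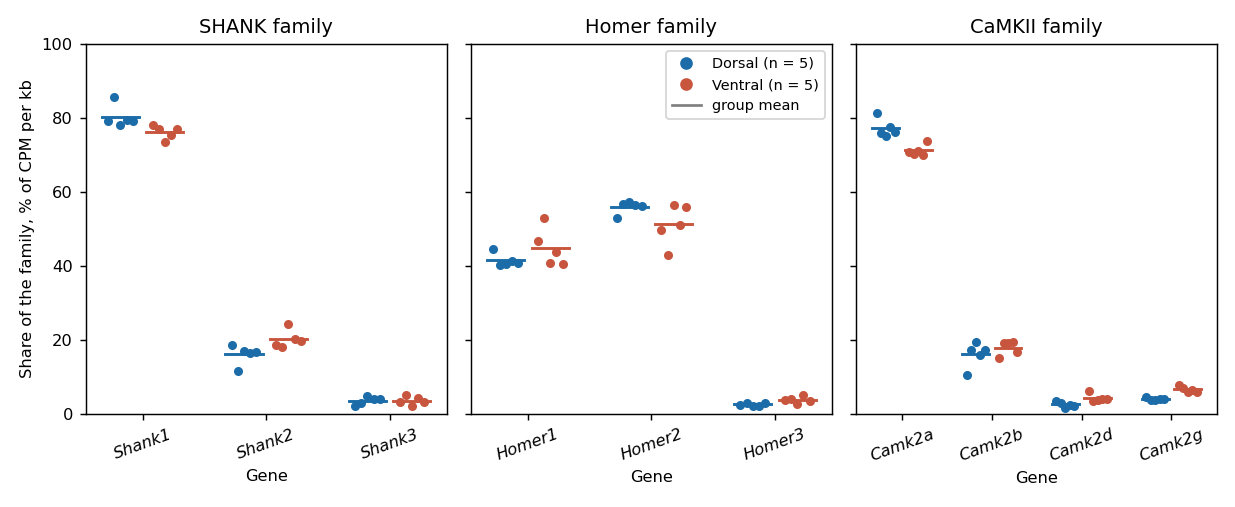
Share of each gene in its family, in percent of CPM per kb of exonic length, in each of the 5 Dorsal (blue) and 5 Ventral (red) libraries, with bars at group means. Camk2a held 77.3% of CaMKII dorsally and 71.2% ventrally, while the Shank1 and Homer2 shares overlapped between the groups.

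Nrgn, which releases calmodulin to CaMKII when calcium rises, was at 163, 421, 537, 335 and 414 CPM dorsally and 263, 354, 309, 387 and 268 CPM ventrally. Dorsal replicate 1 was the lowest library and Dorsal replicate 3 the highest, and the groups overlapped. The means were 374 ± 138 and 316 ± 54.0 CPM, and the difference did not pass in the main fit (log2 0.25 ± 0.23, edgeR adjusted p = 0.427). Without Dorsal replicate 1 the log2 fold change was 0.44 (adjusted p = 0.0360). With GC and length offsets it was 0.43 (adjusted p = 0.0269), and with the share of reads outside genes -0.85 (adjusted p = 0.172).

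Densin (Lrrc7) and CNK2 (Cnksr2, also called MAGUIN) are partners that join CaMKII and DLG proteins in the density. Lrrc7 was at 136 to 153 CPM dorsally and 69.4 to 116 CPM ventrally, without overlap (log2 0.56 ± 0.12, edgeR adjusted p = 0.00380). It fell just short of the fold threshold and was called in 14 of 25 alternatives, among them that with no fold threshold. Cnksr2 was at 512 to 563 against 369.7 to 480.1 CPM, also without overlap (0.35 ± 0.09, adjusted p = 0.00789). With the share of reads outside genes as a covariate neither passed. Lrrc7 was then at 0.58 (edgeR adjusted p = 0.165) and Cnksr2 at 0.46 (adjusted p = 0.112).

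The membrane layer gave no call. Dlg4, which encodes PSD-95, the scaffold most often used to mark excitatory synapses, was at 319, 498, 373, 437 and 410.1 CPM dorsally and 312, 344, 311, 346 and 367 CPM ventrally. The means were 407 ± 67.2 and 336 ± 24.0 CPM, and Dorsal replicate 1 lay within the ventral range. The difference did not pass the test (log2 0.28 ± 0.11, edgeR adjusted p = 0.0707), but did without Dorsal replicate 1 (0.36, adjusted p = 0.0157). The other DLG genes were at log2 fold changes of -0.13 (Dlg1), 0.17 (Dlg2) and 0.13 (Dlg3). The DLGAP genes were at 0.12 (Dlgap1), 0.13 (Dlgap2), -0.23 (Dlgap3) and -0.20 (Dlgap4), with only Dlgap2 passing the p threshold with GC and length offsets (0.43, adjusted p = 0.0246), and Dlgap1 made up 76.9% of the family per kb dorsally and 73.8% ventrally. The MAGI genes, another family of membrane scaffolds, were at -0.11 (Magi1), 0.08 (Magi2) and 0.07 (Magi3).

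Spinophilin (Ppp1r9b) brings protein phosphatase 1 to the actin of the spine. Ppp1r9b (chr11:94991035-95006899) was at 103, 221, 241, 222 and 221 CPM dorsally and 107, 137, 108, 135 and 126 CPM ventrally. Dorsal replicate 1 was below every ventral library and the other 4 dorsal libraries above all of them. The means of 202 ± 56.0 and 122 ± 14.6 CPM differed 1.66-fold (log2 0.73 ± 0.18, edgeR adjusted p = 0.00904), and without Dorsal replicate 1 the value was 0.89 (adjusted p = 0.000103). With the share of reads outside genes as a covariate it was 0.24 (adjusted p = 0.729). Its relative neurabin (Ppp1r9a) did not pass (0.18 ± 0.14, adjusted p = 0.337).

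The IQSEC genes encode exchange factors for Arf GTPases that bind DLG proteins. Iqsec1 was at 124 to 169 CPM dorsally and 169.5 to 221 CPM ventrally, without overlap, though the closest libraries nearly met (log2 -0.49 ± 0.11, edgeR adjusted p = 0.00434). With the share of reads outside genes as a covariate Iqsec1 was at -0.71 (edgeR adjusted p = 0.0595). Iqsec2 (0.08) and Iqsec3 (-0.07) did not pass. Of the SIPA1L genes, which encode Rap GTPase activating proteins of the spine, Sipa1l1 was at 317 to 346 against 227 to 320.0 CPM (0.29 ± 0.10, adjusted p = 0.0332), Sipa1l2 at -0.42 (adjusted p = 0.0623) and Sipa1l3 at 0.24 (adjusted p = 0.127). The adjusted p of Sipa1l1 was above 0.05 (up to 0.0740) without Dorsal replicates 3, 4 or 5 or Ventral replicates 1, 2 or 4. Sipa1l1 was at 0.20 (edgeR adjusted p = 0.558) with the share of reads outside genes as a covariate. Sipa1l3 passed the p threshold with GC and length offsets (0.57, adjusted p = 0.00278), but was at 0.10 (adjusted p = 0.833) with that share. Baiap2, which encodes the membrane-bending protein IRSp53, was at -0.18 (adjusted p = 0.515).

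GRIP1 carries AMPA receptors to the synapse. Grip1 (chr10:119453830-120087261) was at 14.6, 10.5, 27.4, 19.8 and 22.2 CPM dorsally and 42.1, 28.3, 18.7, 32.8 and 34.9 CPM ventrally. Ventral replicate 3 lay within the dorsal range and the other 4 ventral libraries above it. The means of 18.9 ± 6.59 and 31.4 ± 8.66 CPM differed 1.69-fold towards ventral (log2 -0.75 ± 0.25, edgeR adjusted p = 0.0303). This call did not hold in 11 of 25 alternatives, among them those without Dorsal replicates 1, 2 or 4 or Ventral replicates 1, 4 or 5 (adjusted p 0.0571 to 0.0756) and that with the share of reads outside genes (-0.66, adjusted p = 0.483). Grip2 (-0.19, adjusted p = 0.657) and Pick1 (-0.55, adjusted p = 0.200), which bind the same receptor tails, did not pass, and Pick1 was at 0.751 CPM in Dorsal replicate 1 and 4.47 to 9.28 CPM in all other libraries.

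Lin7 proteins form a complex with CASK that carries NMDA receptors and organizes both sides of the synapse. Lin7b (chr7:45367891-45370583) was at 0.939, 6.29, 5.03, 3.36 and 4.16 CPM dorsally and 7.31, 9.49, 7.50, 7.96 and 6.55 CPM ventrally. All ventral libraries were above all dorsal ones, with Dorsal replicate 1 far below the rest. The means of 3.96 ± 2.01 and 7.76 ± 1.09 CPM differed 1.85-fold towards ventral (log2 -0.89 ± 0.30, edgeR adjusted p = 0.0357), and without Dorsal replicate 1 the value was -0.69 (adjusted p = 0.0476). The call did not hold in 9 of 25 alternatives, among them those without Dorsal replicates 4 or 5 or Ventral replicates 1, 2, 4 or 5 (adjusted p 0.0507 to 0.0932) and that with the share of reads outside genes (-1.78, adjusted p = 0.0935), and 24.4% of its exonic bases are shared with Gm45619 and Mtag2. Lin7a (0.19) and the far more abundant Lin7c (0.11) did not pass, but Lin7c was at -0.72 (adjusted p = 0.000452) with GC and length offsets. Cask was at 105.8 to 137 against 90.2 to 105.6 CPM (0.32 ± 0.10, adjusted p = 0.0285), a separation that its nearest libraries barely kept. The adjusted p of Cask was above 0.05 (up to 0.0695) without Dorsal replicates 3, 4 or 5 or Ventral replicate 4. Cask was at 0.41 (edgeR adjusted p = 0.242) with the share of reads outside genes as a covariate.

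**Figure D3:**
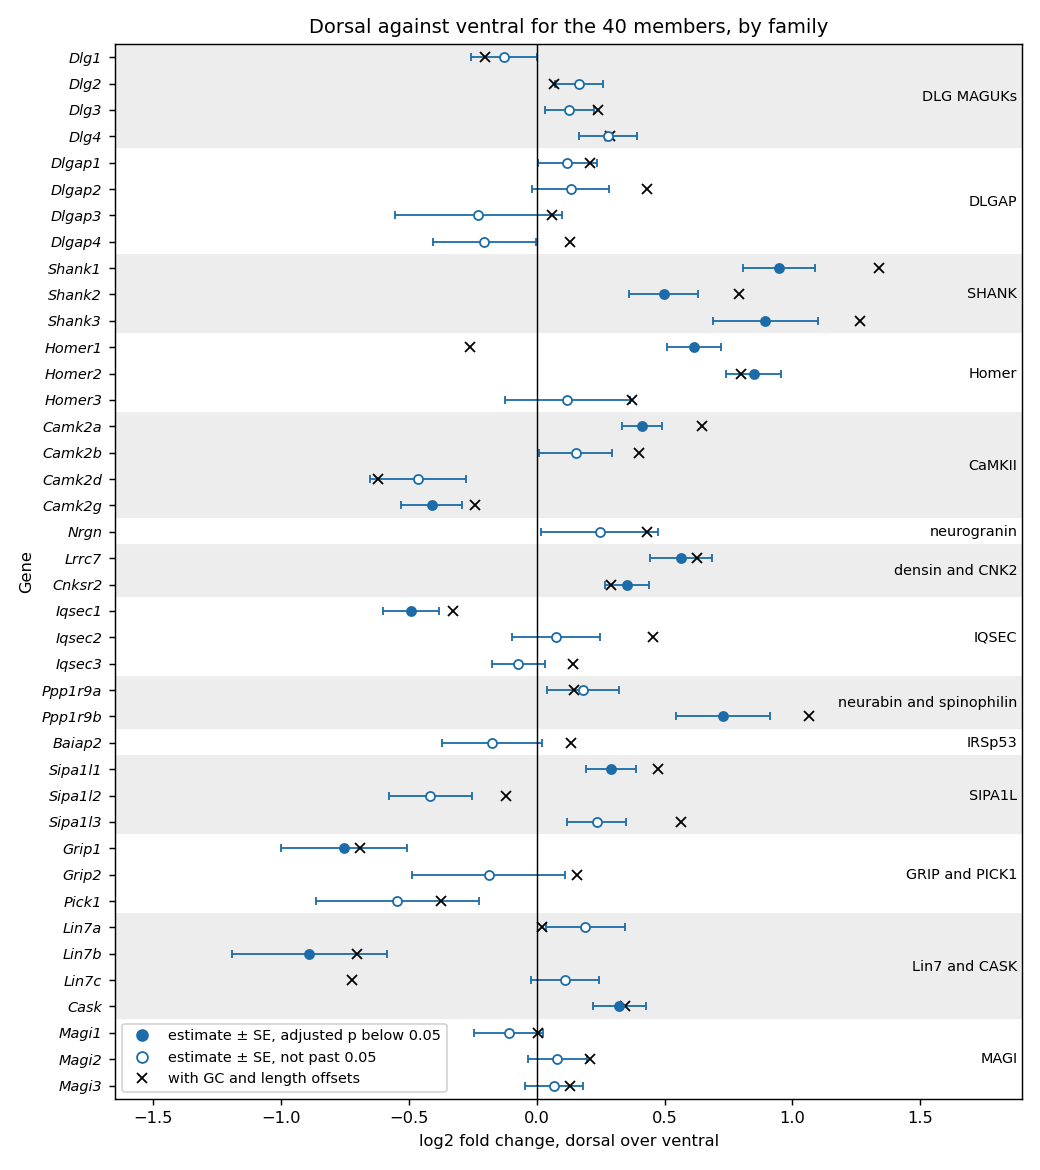
Log2 fold change, dorsal over ventral, of all 40 members grouped by family; circles with bars are edgeR estimates ± SE, filled where the adjusted p was below 0.05, and crosses are estimates with GC and length offsets. SHANK genes and Homer2 stayed to the right with the offsets, while Homer1 moved from 0.62 to -0.26 and Lin7c from 0.11 to -0.72.

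Over all 40 members the median log2 fold change was 0.12, against -0.0044 over all tested genes, and 26 members (65.0%) were on the dorsal side against 49.6% of all tested genes. The dorsal and ventral libraries did not overlap for 9 members (22.5%, against 18.2% of all tested genes and 18.1% of the protein-coding ones). Of these, 7 were higher dorsally (Shank1, Homer1, Homer2, Camk2a, Lrrc7, Cnksr2 and Cask) and 2 ventrally (Iqsec1 and Lin7b).

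Dorsal replicate 1 differed from the other dorsal libraries along base composition. Its departure from the mean of the other 4, on the log2(CPM + 1) scale, fell with transcript GC across the 40 members (Pearson r -0.64, Spearman -0.746, n = 40 genes that share 1 library). In the other 9 libraries r ran from -0.28 to 0.645. The members lowest in Dorsal replicate 1 were Dlgap3 (-2.25), Pick1 (-2.03), Lin7b (-1.53), Nrgn (-1.37), Dlgap4 (-1.31), Ppp1r9b (-1.13) and Shank3 (-1.11), and the SD over members was 0.678 against 0.126 to 0.377 in the other libraries. Without this library 4 members were dorsal-enriched (Homer1 lost its call) and 1 ventral-enriched (Grip1 lost its call), and 19 rather than 15 had an adjusted p below 0.05.

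**Figure D4:**
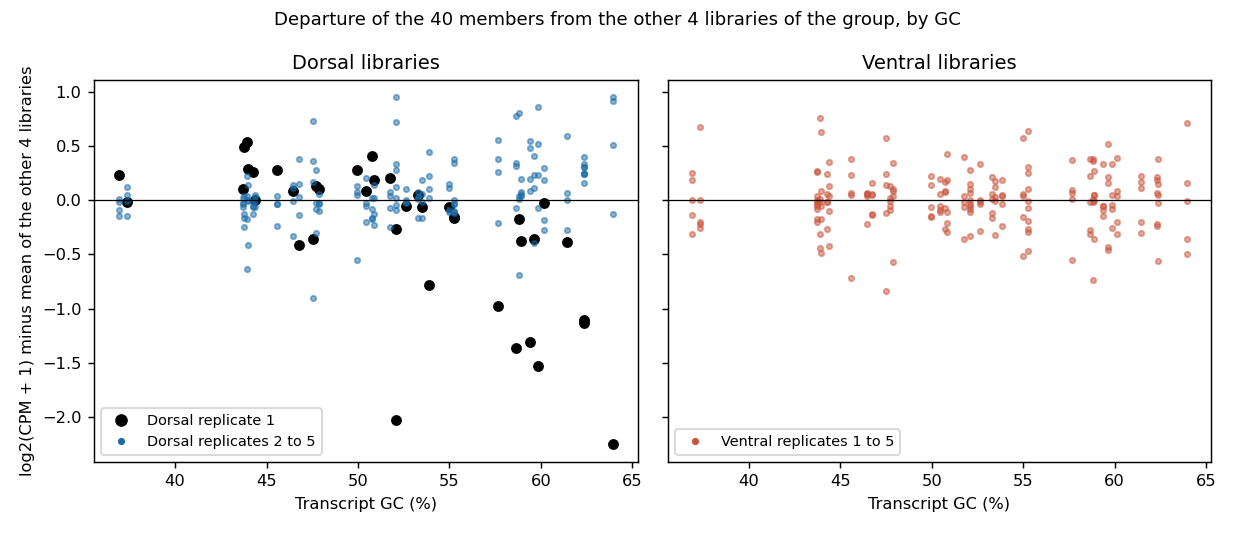
Departure of each of the 40 members in each library from the mean of the other 4 libraries of its group, in log2(CPM + 1), against transcript GC in percent, for Dorsal (left) and Ventral (right) libraries. In Dorsal replicate 1 (black) 9 members, mostly of high GC, lay between -0.79 and -2.25, while others such as Homer3 (60.2% GC, -0.03) and Shank1 (61.4% GC, -0.38) lay nearer the line.

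The regulators of CaMKII and the other proteins of the density were counted from complete lists. Of 20 CaMKII regulators, edgeR called 0 dorsal-enriched (against 15.7% of all tested genes) and 3 ventral-enriched (15%, against 9.85%), while 4 in each direction had an adjusted p below 0.05 (40% in either direction, against 33.6% of all tested genes; at an unadjusted p below 0.05, 4 dorsal and 6 ventral; DESeq2 called 1 dorsal, Camkk2, and 3 ventral), and the median log2 fold change was -0.10. The 3 were Camk2n2, Camk1g and Gap43. Camk2n2, which encodes an endogenous inhibitor of CaMKII, was at 72.2 to 81.8 CPM dorsally and 119.6 to 141 CPM ventrally (log2 -0.79 ± 0.10, edgeR adjusted p = 9.52e-05), but was no longer called with GC and length offsets (-0.46). The more abundant inhibitor gene Camk2n1 was at -0.01. Camk1g, a relative of CaMKII in the CaM kinase I branch, was at 7.96 to 11.3 against 18.1 to 26.5 CPM (-1.12 ± 0.17, adjusted p = 0.000429). Gap43, a growth cone protein that binds calmodulin as Nrgn does, was at 368 to 497 against 643 to 874 CPM (-0.69 ± 0.11, adjusted p = 0.000567). All 3 were without overlap between the groups. With the share of reads outside genes as a covariate Camk2n2 stayed called (-0.73, adjusted p = 0.0375), but Camk1g (-0.70, adjusted p = 0.237) and Gap43 (-0.37, adjusted p = 0.269) did not.

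Of 37 other postsynaptic density proteins, 6 were dorsal-enriched (16.2%, against 15.7% of all tested genes) and 2 ventral-enriched (5.41%, against 9.85%), and the median log2 fold change was 0.13. The dorsal-enriched genes with the lowest adjusted p were Cttnbp2, whose product binds cortactin in spines (0.98 ± 0.12, edgeR adjusted p = 8.26e-05), Plppr4 (0.61 ± 0.10, adjusted p = 0.000556), the activity-induced Arc (0.81 ± 0.13, adjusted p = 0.000692) and the scaffold gene Tanc1 (0.66 ± 0.12, adjusted p = 0.00104). Arc was at 45.8 to 62.4 CPM dorsally and 27.1 to 32.8 CPM ventrally. On the ventral side, Kalrn, which encodes the spine protein kalirin, was at 3999 to 6692 CPM dorsally and 9645 to 12205 CPM ventrally (-1.14 ± 0.13, adjusted p = 5.65e-05). The source of its high counts was not examined. Cttn, the cortactin gene, was at 23.7 to 32.1 against 32.3 to 55.1 CPM (-0.70 ± 0.16, adjusted p = 0.00576). With the share of reads outside genes as a covariate Kalrn (-0.72, adjusted p = 0.0433) and Arc (1.04, adjusted p = 0.0263) stayed called, while Cttnbp2 (0.64, adjusted p = 0.0806), Plppr4 (0.60, adjusted p = 0.0694), Tanc1 (0.45, adjusted p = 0.224) and Cttn (-0.90, adjusted p = 0.120) did not.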

How the data were processed

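RNA was precipitated by TRAP from pooled tissue of 5 mice per library, amplified from 500 pg with the Ovation V2 kit, made into TruSeq v2 libraries and sequenced as 50 bp paired ends on a HiSeq instrument. The authors used STAR 2.5.2b to align reads to GRCm38 and HTSeq 0.7.2 to count them over Ensembl genes, and the deposited values are raw counts, 1 file per library. The annotation release and the strand setting are not given in the sources used here, so that overlapping genes are uncertain. Reads counted as outside genes (11.6% to 33.9%) or ambiguous (5.92% to 8.66%), of all read pairs listed except multiply aligned ones, were left out.

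Groups and replicate numbers came from the sample labels. The labels do not say that equal numbers share mice. By the paper's methods hippocampi were divided into dorsal and ventral parts, so both groups may hold tissue of the same mice. Deviations of same-numbered libraries correlated at -0.0317 to 0.0695, which cannot show that they share none. Samples were not paired in the main test, and the replicate block was an alternative. Chi-square over degrees of freedom for pairs of libraries within a group was 3.24 to 30.4, well above counting noise, so none was a duplicate. A gene was tested if 2 or more libraries exceeded 1 CPM, with the quasi-likelihood test of edgeR 4.0.16 in R 4.3.3 after TMM scaling, with Benjamini-Hochberg adjustment over 16806 genes. SE was taken as the size of the log2 fold change over root F. Coordinates, exonic length and GC came from GENCODE M21, which matched 54809 identifiers. Floors of 3 counts cover counting error alone. Scripts were tested on simulated data. A first bar on the recovery of changed genes over all expression levels was missed there. It was replaced by criteria on abundant genes, bias and false calls.

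Alternatives were DESeq2 size factors, upper-quartile factors, total counts, no count filter or CPM above 1 in 5 libraries, the DESeq2 1.42.0 Wald test, replicate blocks, GC and length offsets (mgcv 1.9.3), protein-coding genes alone, the share of reads outside genes as a covariate, other thresholds, each library left out and, added after seeing the data, the dispersions of edgeR 3. The members and lists were chosen with earlier results of these data known. All members are named. Values per library are given for called members, Dlg4, Camk2a, Camk2b and Nrgn, and from each list at most 4 called genes per direction are named by lowest adjusted p. Camk2n1 and the Pick1 values were singled out after they were seen.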

Additional observations from a re-analysis of the deposited data

Results flagged for a closer look

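Values of 1 library stood far from the other 4 of its group in 11 of 80 groups (40 members in 2 groups). The rule was a gap to the nearest library above 0.71 of the group's range. Its nominal rate of 1 in 20 holds for independent, normally distributed values, while the members share the same 10 libraries. The share flagged over all tested genes is not given here, so no excess in the members can be read from the count. Dorsal replicate 1 was the low library for Shank3 (23.4 CPM against 48.2 to 53.3, gap 0.83 of the range) and Ppp1r9b (103 against 221 to 241, 0.855) and the high one for Dlg2 (715 against 576 to 610.3, 0.751). Dorsal replicate 2 was low for Camk2a (2112 against 2324 to 2405 CPM, 0.724) and high for Dlgap2 (73.5 against 55.1 to 59.4, 0.764) and Sipa1l2 (26.7 against 19.6 to 21.5, 0.739). Ventral replicate 2 was high for Dlgap2 (78.7 against 46.6 to 54.9 CPM, 0.743). Ventral replicate 3 was high for Lin7c (664 against 396 to 456, 0.775) and low for Cask (90.2 against 104 to 106, 0.884). Ventral replicate 4 was high for Dlgap4 (104 against 79.0 to 83.3, 0.827) and Pick1 (9.28 against 7.31 to 7.65, 0.83). In 3 of the 7 called members, Shank3, Ppp1r9b and Lin7b, Dorsal replicate 1 was the lowest dorsal library by more than 1 on the log2(CPM + 1) scale, and Shank3 and Ppp1r9b had larger fold changes without it. Without Ventral replicate 3 the log2 fold change of Lin7c was 0.27 (edgeR adjusted p = 0.0273).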

How the results depend on the processing

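Depth limited Lin7b, Pick1, Homer3 and Grip2 most, at a few CPM. Homer2 kept its call in all 25 alternatives. The count of 5 dorsal-enriched members became 2 with the share of reads outside genes as a covariate and 11 with no fold threshold, and ran from 4 to 6 with single libraries left out. Over all tested genes, the fit with that share called 834 dorsal-enriched and 339 ventral-enriched, against 2636 and 1655 in the main fit. The 2 ventral-enriched members became 4 with GC and length offsets and with no fold threshold, 1 with the replicate block, 0 with the share outside genes, with the dispersions of edgeR 3 (Grip1 and Lin7b at adjusted p of 0.05003 and 0.0738) and at an adjusted p below 0.01, and 0 to 2 with single libraries left out (0 without Dorsal replicate 4 or Ventral replicates 1, 4 or 5). The 15 members at an adjusted p below 0.05 became 3 with the share outside genes and 9 at 0.01, and 11 to 19 with single libraries left out. Called CaMKII regulators (3) became 1 with the share outside genes and 8 with no fold threshold, and other density proteins (8) became 3 with that share. The members' median of 0.12 became 0.18 with GC and length offsets and 0.21 with the replicate block as well. The dorsal excess of the Homer2 share was 2.70 to 6.06 percentage points with single libraries left out, lowest without Ventral replicate 2. With GC and length offsets the sign turned for Homer1 (-0.26), Dlgap3 (0.062), Dlgap4 (0.13), Iqsec3 (0.14), Baiap2 (0.14), Grip2 (0.16), Lin7c (-0.72) and Magi1 (0.0051). With the replicate block as well, it turned for Homer1 (-0.26), Dlgap4 (0.10), Iqsec3 (0.15), Baiap2 (0.12), Grip2 (0.21), Lin7c (-0.71) and Magi1 (0.000886). With the share outside genes it turned for Dlg1 (0.00063), Camk2b (-0.37), Camk2d (0.31), Nrgn (-0.85), Grip2 (0.27), Lin7c (-0.29), Magi1 (0.12) and Magi3 (-0.025). With single libraries left out, Iqsec2 ran from -0.0051 to 0.19 and Magi2 from -0.0031 to 0.13. The cause of these changes was not tested. The replicate block gave 2656 dorsal- and 1672 ventral-enriched genes over the whole table. Of these, 2496 and 1533 were shared with the unblocked 2636 and 1655. Same-numbered libraries correlated at a mean of 0.0159, which cannot show whether equal numbers share mice.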
